A study of Rattus norvegicus with 10 samples.

Results

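The course of gene expression from 4 h to 24 h in injured rat heart under treatment with the compound BT2 was read from 4 tissue libraries, chosen by their labels as all BT2-treated libraries of bulk tissue. There were 2 libraries at 4 h and 2 at 24 h, out of 10 samples in the series, and all genes of the deposited table entered the comparison. The other samples used here were 4 tissue libraries of vehicle-treated rats at the same times, 2 at each. Every library came from heart tissue that the labels call the AAR, a term commonly used for the muscle downstream of a closed coronary artery. The left coronary artery had been ligated in all groups, controls included, so no group of unligated hearts entered. The sample titles count the hours from the ligation, whereas the design text counts them from an injury it calls M/IR, and so the zero of the clock is not settled. BT2 is known here by its code name alone. The sources used here give neither the dose of the tissue samples nor the rats' strain, sex or age. No source used here ties the libraries to different animals, so the p-values measure the spread between these samples, which may be technical.

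A closed coronary artery sets off an ordered response in the heart. Immediate early genes, stress genes and cytokines are transcribed within hours, neutrophils and then monocytes enter, and dividing cells and fibroblasts follow with new matrix, while the surviving muscle lowers its contractile and mitochondrial transcripts. In RNA from whole tissue a lower level of a cell type's genes can come from fewer such cells or from less RNA per cell, and these cannot be told apart.

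Levels are given as CPM (counts scaled to a common library size), scaled for each library by TMM factors. Changes are log2 fold changes of 24 h over 4 h (2 libraries a side) with their standard error (SE). The SE comes from the edgeR fit over all 8 tissue libraries, which shares the estimate of spread. It is not the spread of the 4 BT2 libraries alone. A gene was called when its Benjamini-Hochberg adjusted p in the edgeR quasi-likelihood test was under 0.05. The 4 BT2 libraries held 13735630 and 19171154 counts at 4 h and 20767609 and 21648965 at 24 h, and log2 CPM of replicates correlated across genes at 0.985 and 0.988.

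With BT2, 1782 of 15216 genes tested rose from 4 h to 24 h (11.7%) and 1766 fell (11.6%). In all 3548 called genes both libraries of one time lay above both of the other. A call from 2 libraries a side nearly requires this, so it adds no support to the calls. More than 2-fold rises were seen in 807 called genes and falls of that size in 493. The median change over all genes tested was 0.02. With upper quartile scaling the split moved to 2296 higher and 1265 lower, or 64.5% higher among the calls against 50.2% with TMM factors. Without 1 of the 4 BT2 libraries the test called fewer genes, with 536 higher and 578 lower without replicate 1 of 4 h, 922 and 1124 without replicate 2 of 4 h, 954 and 921 without replicate 1 of 24 h, and 540 and 485 without replicate 2 of 24 h. Below, 4 counts of a list's calls without single libraries follow this order.

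**Figure D1:**
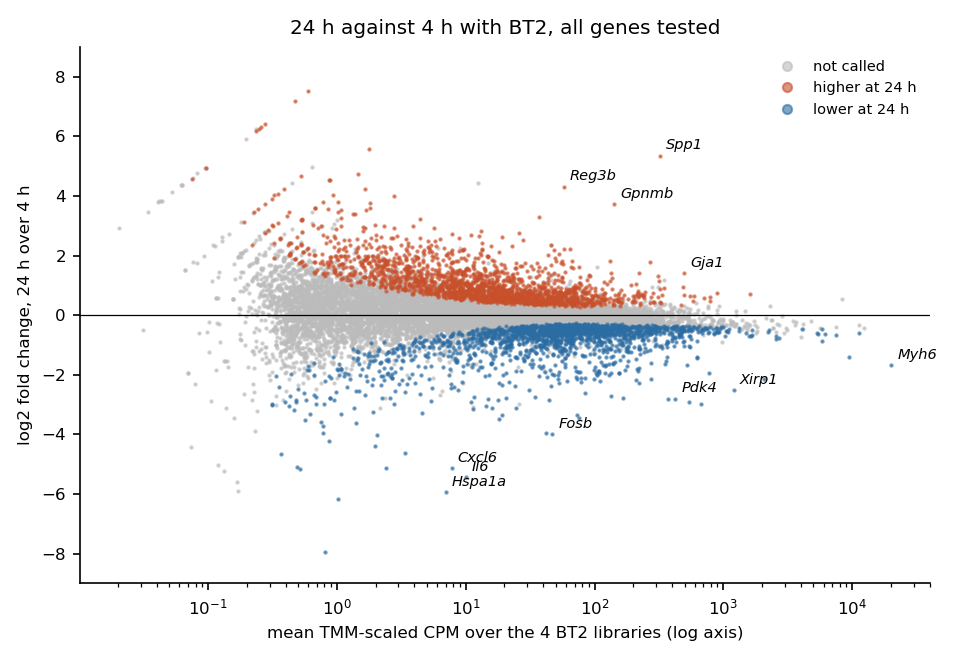
Log2 fold change of 24 h over 4 h with BT2 (vertical axis) against mean TMM-scaled CPM over the 4 BT2 libraries (log axis), 1 point per gene, coloured by the edgeR call; 3 genes lie beyond the axis limit of 9. Spp1, Reg3b and Gpnmb stand far above 0 among genes of high level, and Hspa1a, Il6 and Cxcl6 far below, while Myh6 has the highest level of the genes named.

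The largest rise among genes with a mean of at least 5 CPM over the 4 BT2 libraries was that of Spp1, which encodes osteopontin, a secreted matrix protein made in quantity by recruited macrophages. It was at 12.6 and 17.9 CPM at 4 h and 420.0 and 836 CPM at 24 h. Its log2 fold change was 5.35 ± 0.45 (adjusted p = 0.00161). Reg3b, a secreted lectin of the regenerating islet-derived family, went from 4.44 and 6.43 CPM at 4 h to 117 and 103 CPM at 24 h (4.32 ± 0.19, adjusted p = 0.000173). Gpnmb, a membrane glycoprotein of lipid-laden macrophages, was at 22.9 and 17.2 CPM at 4 h and 237 and 294 CPM at 24 h (3.73 ± 0.26, adjusted p = 0.000871). For these 3 genes the groups lay far apart, and the call held whichever BT2 library was left out. The same held for C3ar1, the receptor of complement fragment C3a (2.81), for Amz1, a zinc metallopeptidase (2.56), and for Cd180, a toll-like receptor relative of B cells and macrophages (2.47).

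Other genes of the leading set lost the call in some fits without 1 BT2 library. In those named here the log2 fold change stayed between 1.8 and 3.32 in these fits. G0s2, an inhibitor of the lipase that opens fat droplets, was at 6.98 and 9.37 CPM at 4 h and 42.5 and 52.5 CPM at 24 h (2.53 ± 0.41, adjusted p = 0.00812, and 0.061 without replicate 1 of 4 h). Ccl24, an eosinophil-attracting chemokine (2.72), Adam12 (2.68) and Adamtsl1 (2.75), 2 genes of the ADAM and ADAMTS-like families, and Evi2b (2.49), a leukocyte membrane protein, were also in the set. They passed in 1, 2, 2 and 1 of the 4 fits without 1 BT2 library.

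Among the largest falls were transcripts of the immediate early and acute cytokine response. Il6, the main inducer of the acute phase response, was at 13.2 and 26 CPM at 4 h and 0.316 and 0.571 CPM at 24 h (-5.44 ± 1.06, adjusted p = 0.0162). Cxcl1, a neutrophil chemoattractant, was at 109 and 49.7 CPM at 4 h and 3.57 and 6.61 CPM at 24 h (-3.95 ± 0.51, adjusted p = 0.00522). Both genes were low in both 24 h libraries, but Il6 was called in only 1 of the 4 fits without 1 BT2 library (adjusted p 0.0434 to 0.0914), Cxcl1 in all 4. The transcription factor genes Nr4a3 (49.5 and 38.8 CPM at 4 h and 6.01 and 4.28 CPM at 24 h), Fosl1 (31.4 and 9.82 CPM at 4 h and 1.18 and 3.34 CPM at 24 h) and Fosb (126 and 50.2 CPM at 4 h and 9.13 and 2 CPM at 24 h) fell by 3 to 4 on the log2 scale, with -3.10, -3.15 and -3.99. Fosb passed without replicate 2 of 4 h (0.0356) and without replicate 1 of 24 h (0.0382), but not without replicate 1 of 4 h (0.0864) or replicate 2 of 24 h (0.0988). Fosl1 passed only without replicate 2 of 4 h (0.0104), with 0.0634, 0.0763 and 0.0533 without the other libraries.

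Ptx3, a secreted pattern recognition protein, was at 136 and 132 CPM at 4 h and 9.49 and 16.5 CPM at 24 h (-3.36, adjusted p = 0.0286), and Cxcl6, a neutrophil chemokine, at 14.5 and 15.8 CPM at 4 h and 0.136 and 0.693 CPM at 24 h (-5.13, adjusted p = 0.0485). Neither passed in any fit without 1 BT2 library, with adjusted p of 0.0793 to 0.136 and 0.122 to 0.192. Ankrd2, a stretch-responsive muscle protein, was at 19.9 and 46.5 CPM at 4 h and 4.25 and 1.71 CPM at 24 h (-3.50). Tiam2, an activator of the small GTPase Rac, was at 56.9 and 13.4 CPM at 4 h and 3.66 and 3.22 CPM at 24 h (-3.34), and these passed in 3 and 2 of the 4 fits. Cyp1a1, the cytochrome P450 induced by the aryl hydrocarbon receptor, was at 1.9 and 83.1 CPM at 4 h, levels far apart, and had no reads at 24 h. Set against a floor of 3 counts in each 24 h library, its mean at 4 h was at least 330-fold higher than at 24 h, a limit that rests on replicate 2 of 4 h, since replicate 1 alone gave at least 14.8-fold. Its call was lost without replicate 1 (0.117) or replicate 2 of 24 h (0.138), with no filter on low counts (0.18) and with the BT2 libraries fitted alone (0.32).

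**Figure D2:**
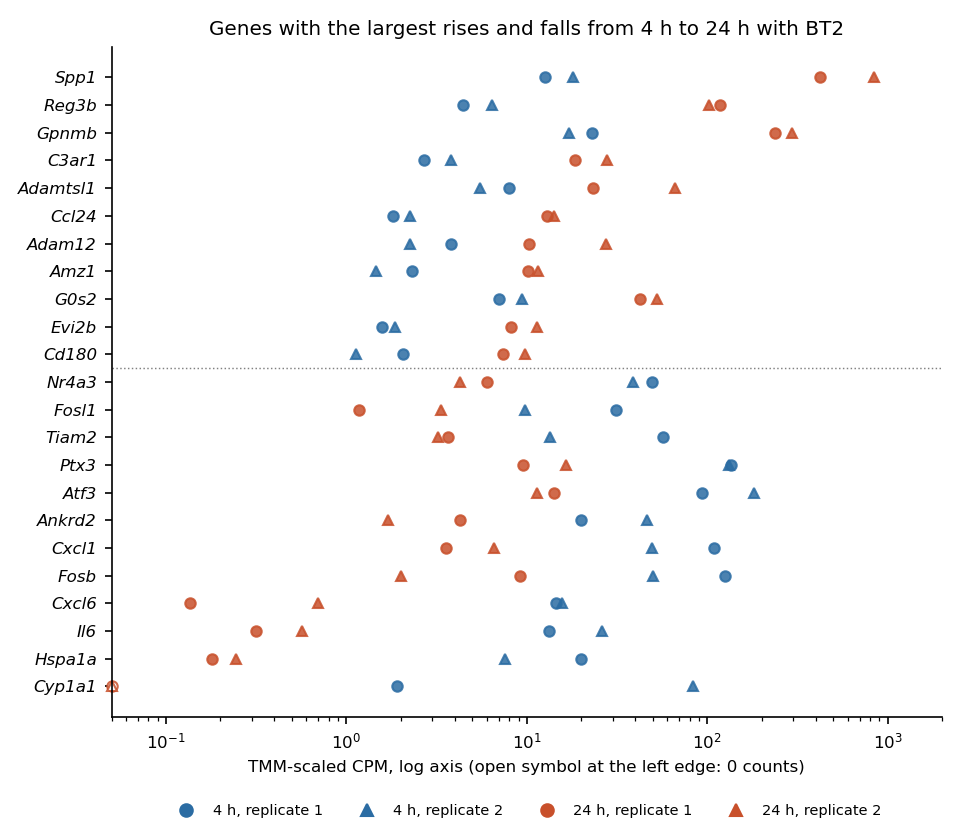
TMM-scaled CPM (log axis) of 11 genes with the largest rises and 12 with the largest falls, 1 symbol per BT2 library, blue at 4 h and orange at 24 h; open symbols at the left edge mark Cyp1a1, with 0 counts at 24 h. In each gene both orange symbols lie on one side of both blue ones, which the choice of genes required, and the spread within a time is widest for Cyp1a1 at 4 h.

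Most immediate early genes fell with BT2. Of 24 immediate early genes tested, 17 were lower at 24 h (70.8%, against 11.6% of all genes) and the other 7 did not pass, with a median change of -1.28. The count was 11, 12, 15 and 7 without single libraries. Atf3, a stress-induced repressor of the CREB family, was at 94 and 182 CPM at 4 h and 14.2 and 11.3 CPM at 24 h (-3.43 ± 0.34, adjusted p = 0.00215). Maff, a small Maf factor, was at 91 and 59.9 CPM at 4 h and 22.5 and 24.3 CPM at 24 h (-1.69), and Myc, the growth-promoting factor, at 75.2 and 73.6 CPM at 4 h and 24.4 and 33.4 CPM at 24 h (-1.36). Fos was at 136 and 96 CPM at 4 h and 30.9 and 23.9 CPM at 24 h (-2.08 ± 0.30, adjusted p = 0.00562). In these 4 genes no 24 h library reached a 4 h library, and each passed whichever BT2 library was left out. Egr1, a zinc finger factor of the same class, was at 150.5 and 192 CPM at 4 h and 63.4 and 27 CPM at 24 h (-1.92 ± 0.39, adjusted p = 0.0165), and did not pass without replicate 1 (0.055) or replicate 2 of 4 h (0.0659).

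The promoters of 2 members are shown because they carry the elements through which this class is best known to be switched on, the cAMP response element and the CArG box of serum response factor (CC, then only A or T, then GG). Each is the stretch of 250 bases before the start of transcription in the RefSeq table of build GRCr8, 5′ to 3′ on the gene's strand, with matches in capitals (Maff at chr7:112792537-112792786, plus strand, and Egr1 at chr18:26736828-26737077, plus strand).
Maff: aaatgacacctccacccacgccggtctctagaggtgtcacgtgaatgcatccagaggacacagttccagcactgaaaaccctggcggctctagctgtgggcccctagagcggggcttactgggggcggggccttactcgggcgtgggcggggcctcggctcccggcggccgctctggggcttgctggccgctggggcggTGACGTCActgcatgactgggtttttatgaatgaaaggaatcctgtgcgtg
Egr1: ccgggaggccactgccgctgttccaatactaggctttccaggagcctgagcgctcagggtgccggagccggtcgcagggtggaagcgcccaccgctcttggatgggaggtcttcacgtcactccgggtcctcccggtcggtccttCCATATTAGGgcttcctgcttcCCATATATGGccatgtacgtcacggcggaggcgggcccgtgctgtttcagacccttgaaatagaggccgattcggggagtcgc
The letters TGACGTCA, on either strand and within 250 bases before to 50 after the start, were in 4 of 16 promoters (25%, against 1.91% of all) of the immediate early list. A CArG box was in 3 of 16 promoters (18.8%, against 1.64% of all). These matches are descriptions of the sequence, and no binding was measured.

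Some feedback inhibitors of the same signals fell as well. Of 22 NF-kappaB feedback genes, 10 were lower and 2 higher (45.5% and 9.09%), with a median change of -0.65. Socs3, the inhibitor of cytokine receptor signalling, was at 182 and 231 CPM at 4 h and 40 and 62.2 CPM at 24 h (-2.02), and Nfkbiz, an atypical IkappaB protein, at 65.9 and 48.4 CPM at 4 h and 20.6 and 14.5 CPM at 24 h (-1.70). Bcl3, another IkappaB relative (-1.49), and Birc3, an inhibitor of apoptosis (-1.22), were also lower, all 4 with the call kept whichever BT2 library was left out. Of 20 ERK pathway feedback genes 1 was higher (5%, against 11.7% of all genes) and 6 were lower (30%, against 11.6%). Among the 6 were the growth factor Hbegf (37.3 and 24.6 CPM at 4 h and 8.09 and 7.3 CPM at 24 h, -2.0) and the inhibitor Spry2 (110.5 and 61.6 CPM at 4 h and 30 and 33.4 CPM at 24 h, -1.44). That count was 2, 5, 3 and 2 without single libraries.

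Heat shock genes of the cytosol, which encode chaperones for misfolded proteins, were lower in 14 of 21 members (66.7%), and the median change was -0.69. The count was 7, 9, 10 and 7 without single libraries. Hspa1a, the inducible Hsp70, was at 20 and 7.62 CPM at 4 h and 0.181 and 0.245 CPM at 24 h (-5.95 ± 0.68, adjusted p = 0.00323), and has a near-identical copy, so its counts are uncertain. The co-chaperone genes Dnajb4 (275 and 275 CPM at 4 h and 143 and 122 CPM at 24 h, -1.05) and Dnaja4 (127 and 129 CPM at 4 h and 79.2 and 57.9 CPM at 24 h, -0.90) fell less. Hsph1, an Hsp110 protein, was at 106 and 115 CPM at 4 h and 63.4 and 59.4 CPM at 24 h (-0.85, adjusted p = 0.00601). Its promoter is shown because it holds the paired GAANNTTC unit of the heat shock element, in capitals (chr12:10427118-10427367, plus strand, RefSeq build GRCr8).
Hsph1: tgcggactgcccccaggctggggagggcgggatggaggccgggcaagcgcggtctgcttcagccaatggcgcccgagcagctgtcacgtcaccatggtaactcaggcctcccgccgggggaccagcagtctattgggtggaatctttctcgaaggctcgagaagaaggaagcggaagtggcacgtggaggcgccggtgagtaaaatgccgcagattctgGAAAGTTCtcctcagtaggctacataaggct
This unit was in 11 of 19 promoters (57.9%, against 8.34% of all) of the heat shock list.

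Targets of glucocorticoids and of p53 were also called mainly as lower. Of 18 glucocorticoid targets 9 were lower and 1 higher (50% and 5.56%), with a median of -0.98. Klf9, a Krüppel-like factor, was at 143 and 138 CPM at 4 h and 68.3 and 73.6 CPM at 24 h (-0.98), and Fkbp5, the co-chaperone of the receptor, at 166 and 249 CPM at 4 h and 56 and 81.4 CPM at 24 h (-1.60, called in 3 of the 4 fits). Nr3c1, the glucocorticoid receptor itself, was the member that rose, from 105 and 91.5 to 149.7 and 135 CPM (0.54, in 3 of the 4 fits). The count of lower members was 5, 5, 5 and 6 without single libraries and 3 with no filter on low counts. Of 18 p53 targets, 6 were lower (33.3%). Cdkn1a, the cell cycle inhibitor p21, was at 184 and 204 CPM at 4 h and 64 and 61.9 CPM at 24 h (-1.63), and Gadd45a, a DNA damage response protein, at 235 and 188 CPM at 4 h and 58.8 and 52.3 CPM at 24 h (-1.93). Both passed in each fit without 1 BT2 library, and the list's count was 5, 3, 5 and 3.

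Cytokines and their receptors were called more often as lower than as higher. Of 17 inflammatory cytokines, 5 were lower (29.4%) and 2 higher (11.8%, near the 11.7% of all genes). Lif, a cytokine of the interleukin-6 family, was at 4.36 and 5.53 CPM at 4 h and 0.542 and 0.693 CPM at 24 h (-2.99), and Osm, of the same family, at 5.08 and 6.04 CPM at 4 h and 2.31 and 2.57 CPM at 24 h (-1.19). Csf2 and Csf3, the granulocyte colony factors, were near the limit of detection at 24 h, with 1 read in both libraries together for each, after 1.35 and 0.677 and 2.62 and 1.41 CPM at 4 h. Il33, an alarmin of stromal cells, rose from 12.8 and 13.3 to 32.3 and 35.6 CPM (1.38 ± 0.19, adjusted p = 0.00414), and Tgfb1, the fibrogenic growth factor, from 40.9 and 38.9 to 55.2 and 63.2 (0.57, in 3 of the 4 fits). Of 21 cytokine receptors 7 were lower and 3 higher (33.3% and 14.3%). Osmr, the oncostatin M receptor, was at 283 and 268 CPM at 4 h and 71.6 and 97.9 CPM at 24 h (-1.70), Il1r1, the interleukin-1 receptor, at 266 and 213 CPM at 4 h and 115 and 106 CPM at 24 h (-1.12) and Tnfrsf12a at 182 and 109 CPM at 4 h and 19.8 and 28 CPM at 24 h (-2.60), while Csf1r, the receptor of macrophage colony stimulating factor, rose. Without single libraries 4, 5, 3 and 3 cytokines and 3, 4, 3 and 6 receptors were lower, and 1, 2, 1 and 1 receptors higher.

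Of 35 chemokines and their receptors 7 were higher (20%) and 4 lower (11.4%, near the 11.6% of all genes). Cx3cr1, the fractalkine receptor of monocytes and resident macrophages, was at 0.476 and 0.113 CPM at 4 h and 2.58 and 4.04 CPM at 24 h (3.60). Ccl21, the lymphatic chemokine, which has near-identical copies, was at 30.6 and 17.6 CPM at 4 h and 66.9 and 60.6 CPM at 24 h (1.41). Ccl2, the monocyte attractant, was at 272 and 62 CPM at 4 h and 27 and 54.9 CPM at 24 h, with 1 high library at 4 h, and did not pass in edgeR (-2.02 ± 0.66, adjusted p = 0.0685). It passed with DESeq2 (0.0279) and without replicate 2 of 4 h (0.0102). The higher count was 2, 3, 5 and 4 and the lower count 2, 4, 1 and 1 without single libraries. With no filter on low counts 3 were higher, and with DESeq2 7 were lower.

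Part of the complement genes rose. Of 20 tested, 9 rose (45%) and 11 did not pass, and the median change was 0.50. C3ar1, the C3a receptor, was at 2.7 and 3.78 CPM at 4 h and 18.5 and 27.7 CPM at 24 h (2.81 ± 0.25, adjusted p = 0.00145). C2, a protease of the classical pathway, was at 14.3 and 15.6 CPM at 4 h and 32.8 and 32.2 CPM at 24 h (1.11), and C4b, its partner in that pathway, at 7.29 and 11.1 CPM at 4 h and 24.3 and 25.7 CPM at 24 h (1.43). These 3 genes passed whichever BT2 library was left out, whereas the count of higher members was 4, 4, 5 and 4 without single libraries. Interferon response genes gave few calls, 3 higher and 2 lower of 38 (7.89% and 5.26%), both under the share of all genes. Rsad2, the antiviral enzyme viperin, was at 20.6 and 16.6 CPM at 4 h and 29.8 and 38.5 CPM at 24 h (0.88), and Irf7, a factor of the type I interferon response, at 35.5 and 56.2 CPM at 4 h and 24.2 and 27.3 CPM at 24 h (-0.84). They passed in 3 and 1 of the 4 fits, and the higher count was 1, 3, 1 and 1 without single libraries.

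In coagulation and fibrinolysis 7 of 22 genes were lower and 4 higher (31.8% and 18.2%). Fgl2, a membrane prothrombinase, was at 629 and 678 CPM at 4 h and 81.8 and 103 CPM at 24 h (-2.82 ± 0.28, adjusted p = 0.00193), and Tfpi2, a protease inhibitor of the matrix, at 18.8 and 26.3 CPM at 4 h and 5.06 and 5.99 CPM at 24 h (-2.03). F13a1, the subunit of factor XIII made by macrophages, rose to 74.2 and 83.6 CPM from 25.9 and 38.9 (1.28). Each of these 3 genes passed whichever BT2 library was left out. The list's higher count was 2, 1, 3 and 1 without single libraries. Of 25 inflammasome and cell death genes 7 were higher and 5 lower (28% and 20%). Pycard, the ASC adaptor, was at 4.52 and 5.93 CPM at 4 h and 15.2 and 12 CPM at 24 h (1.37), and Casp8, an initiator caspase, at 7.21 and 6.49 CPM at 4 h and 13.9 and 14.1 CPM at 24 h (1.03). The survival genes Bcl2l1 (119 and 108 CPM at 4 h and 36.5 and 54.3 CPM at 24 h, -1.32) and Cflar (94 and 86.7 CPM at 4 h and 50.7 and 54.6 CPM at 24 h, -0.78) were lower. The 7 became 2, 3, 4 and 3 without single libraries.

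Macrophage markers were among the genes that rose. Of 16 resident macrophage markers 10 were higher (62.5%, against 11.7% of all genes), with a median of 0.83, and of 16 markers of monocytes and recruited macrophages 5 were higher (31.2%). Csf1r was at 48.5 and 58.5 CPM at 4 h and 136 and 128 CPM at 24 h (1.30 ± 0.13, adjusted p = 0.00184), Folr2, a folate receptor of resident macrophages, at 8.09 and 9.71 CPM at 4 h and 25.1 and 26.7 CPM at 24 h (1.53), and Trem2, a lipid receptor, at 3.57 and 2.37 CPM at 4 h and 8.86 and 10.1 CPM at 24 h (1.69). These genes were called in each fit without 1 BT2 library. Without single libraries 3, 3, 6 and 3 markers of the recruited list were higher, and 3 with no filter on low counts. Over the list of resident markers the count was 5, 5, 6 and 6 without single libraries. The summed level of the recruited list (all 18 markers in the table, tested or not) was 454 and 508 CPM at 4 h and 1260 and 1920 CPM at 24 h, of which Spp1 and Gpnmb made up the larger part at 24 h. The sum over the resident list was 969 and 1180 CPM at 4 h and 1380 and 1390 CPM at 24 h.

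Genes of lysosomes and lipid-laden macrophages were higher in 10 of 31 members and lower in 1 (32.3% and 3.23%). Cd68, the lysosomal membrane marker of macrophages, was at 12 and 12 CPM at 4 h and 32 and 40 CPM at 24 h (1.58 ± 0.14, adjusted p = 0.00161), and Grn, progranulin, at 124 and 133 CPM at 4 h and 205 and 210.3 CPM at 24 h (0.69). Lpl, the lipase of the vessel wall, was the member that fell, from 3351 and 3385 to 2247 and 1758 CPM (-0.75, called in 1 of the 4 fits). The 10 became 6, 8, 9 and 7 without single libraries.

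Markers of other cell types were set beside these. The 12 neutrophil markers tested had a median of -1.0, with 2 called lower (Mmp8 at 13.6 and 17.4 CPM at 4 h and 2.98 and 3.51 CPM at 24 h and Il1r2 at 17.4 and 33.9 CPM at 4 h and 1.81 and 4.4 CPM at 24 h), and both calls were lost whichever BT2 library was left out. The summed level of all 14 in the table, 258 and 448 CPM at 4 h and 146 and 288 CPM at 24 h, overlapped between the times. Of 14 T and NK cell markers 4 were higher, at low levels such as 1.03 and 1.52 CPM at 4 h and 4.88 and 5.79 CPM at 24 h for Cd8a, a T cell coreceptor called in 1 of the 4 fits, and of 7 lymphatic endothelial markers 4 were higher, among them Ccl21 and, with the smallest p, the lymphatic factor Prox1 (19 and 22.2 CPM at 4 h and 55.9 and 50 CPM at 24 h, 1.36). The higher shares of the T and NK and the lymphatic markers were 28.6% and 57.1%, against 11.7% of all genes. Among 14 endothelial markers 4 rose and 4 fell (28.6% each way). Flt1, a VEGF receptor, was at 458 and 494 CPM at 4 h and 245 and 252 CPM at 24 h (-0.94), and Ptprb, the vascular phosphatase, at 947 and 871 CPM at 4 h and 335 and 342 CPM at 24 h (-1.43), while Vwf, von Willebrand factor, rose from 254 and 197 to 373 and 454 (0.88, called in 2 of the 4 fits). The T and NK count was 1, 2, 3 and 2 without single libraries, the lymphatic count 2, 3, 2 and 2, and the count of lower endothelial markers 3, 2, 3 and 2. Of the higher endothelial markers 1 passed without replicate 1 of 4 h and in each fit without a 24 h library, and all were lost without replicate 2 of 4 h.
Of 13 fibroblast markers 1 passed, Col1a1 (440.5 and 421 CPM at 4 h and 708 and 652 CPM at 24 h, 0.66), and it did not pass in any fit without 1 BT2 library. The 14 fibroblast markers in the table summed to 4750 and 4680 CPM at 4 h and 5070 and 4730 CPM at 24 h, with the times overlapping. The 11 Schwann cell and neuron markers in the table summed to 132 and 162 CPM at 4 h and 296 and 313 CPM at 24 h. Among them Ncam1, an adhesion molecule that injured muscle also makes, was at 57.8 and 88 CPM at 4 h and 181 and 207 CPM at 24 h (1.41). Of the 9 markers tested 4 rose (44.4%, against 11.7% of all genes). Their count was 1, 3, 2 and 2 without single libraries. Of 13 pericyte and smooth muscle markers 2 were higher, and of 12 dendritic cell markers 1 was higher and 1 lower, shares near those of all genes. With upper quartile scaling the counts of higher markers were 4 and 2. The 9 erythroid markers in the table, a gauge of blood in the tissue, summed to 4540 and 2210 CPM at 4 h and 2010 and 3950 CPM at 24 h, without a common direction. Mcpt1, Snap25, Upk3b, Plin1, Ucp1, Gp1bb and Ly6c had no reads in the BT2 libraries. The part of any of these cell types in the other results was not tested.

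**Figure D3:**
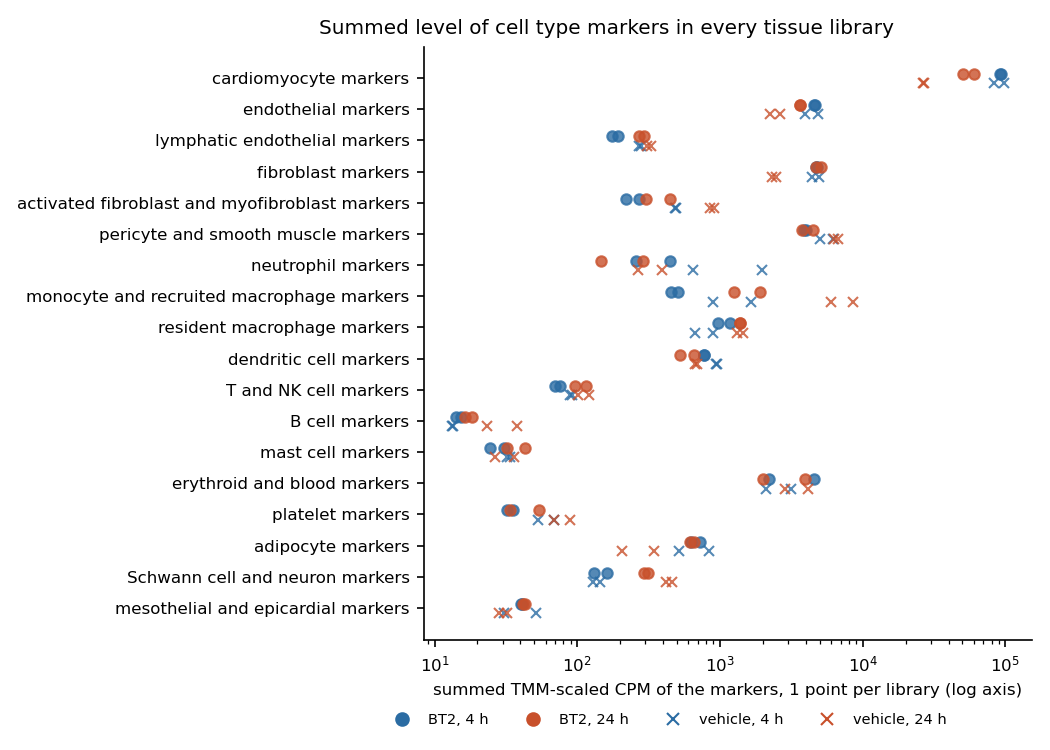
Summed TMM-scaled CPM of each cell type's markers (log axis), 1 symbol per library, with BT2 as circles, vehicle as crosses, blue at 4 h and orange at 24 h. With BT2 the cardiomyocyte sum falls and the recruited macrophage sum rises without overlap, and the fibroblast and erythroid sums overlap.

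Matrix genes were higher in part. Of 32 collagens and crosslinking genes 13 rose (40.6%) and 2 fell, with a median of 0.47. Serpinh1, the collagen chaperone, was at 203 and 187 CPM at 4 h and 436 and 429.6 CPM at 24 h (1.15 ± 0.12, adjusted p = 0.00184), Loxl1, a crosslinking oxidase, at 30.6 and 32.2 CPM at 4 h and 64.6 and 67.3 CPM at 24 h (1.07), and Pcolce, an enhancer of procollagen cleavage, at 32.8 and 37.9 CPM at 4 h and 66.1 and 71.9 CPM at 24 h (0.96). Col5a1, which starts collagen fibrils, was at 167 and 158 CPM at 4 h and 271 and 278 CPM at 24 h (0.76). These 4 genes passed whichever BT2 library was left out, while the list's count was 5, 8, 11 and 6 without single libraries.

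Of 23 matricellular genes 10 rose and 5 fell (43.5% and 21.7%). Postn, periostin of activated fibroblasts, was at 46.2 and 28.4 CPM at 4 h and 92 and 136 CPM at 24 h (1.62), and Tnc, tenascin C, at 13.2 and 17.9 CPM at 4 h and 32.9 and 65.7 CPM at 24 h (1.66, called in 1 of the 4 fits). Thbs1, thrombospondin 1, fell from 1131 and 767 to 105 and 144 CPM (-2.93 ± 0.24, adjusted p = 0.00121). The hyaluronan synthases went opposite ways, with Has1 at 22.1 and 30.2 CPM at 4 h and 4.07 and 3.38 CPM at 24 h (-2.82) and Has2 at 1.9 and 1.86 CPM at 4 h and 4.93 and 5.59 CPM at 24 h (1.48). Has2 did not pass without replicate 1 of 4 h (0.0507) or replicate 2 of 24 h (0.0533). Ctgf, a YAP target, was at 442 and 244 CPM at 4 h and 108 and 91.7 CPM at 24 h (-1.78 ± 0.28, adjusted p = 0.00655, in 3 of the 4 fits). The 10 higher members became 2, 6, 9 and 2 without single libraries. Of 11 markers of activated fibroblasts 5 rose and Runx1 fell (27.4 and 19.4 CPM at 4 h and 9.09 and 11.7 CPM at 24 h, -1.16, in 2 of the 4 fits), and 3, 3, 4 and 2 were higher without single libraries and 3 with no filter on low counts. Lrrc17, a secreted leucine-rich repeat protein, was at 2.54 and 2.2 CPM at 4 h and 9.81 and 12.7 CPM at 24 h (2.25). Of the activated fibroblast markers 45.5% rose and 9.09% fell, against 11.7% and 11.6% of all genes.

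Among 26 matrix proteases and inhibitors 8 rose and 5 fell (30.8% and 19.2%). Mmp12, macrophage elastase, had no reads at 4 h and was at 2.98 and 8.6 CPM at 24 h, at least 28.5-fold higher on the floor of 3 counts in each 4 h library (at least 14.7-fold from replicate 1 of 24 h alone). The proteoglycan-cleaving proteases Adamts4 (35.7 and 41.6 CPM at 4 h and 7.59 and 13.3 CPM at 24 h, -1.88) and Adamts9 (179.9 and 157 CPM at 4 h and 42.5 and 49.8 CPM at 24 h, -1.87) fell, and Adamts5 rose (8.17 and 10.6 CPM at 4 h and 18 and 19.5 CPM at 24 h, 1.0, in 2 of the 4 fits). Timp1, an inhibitor of these proteases, did not pass, at 127 and 120.5 CPM at 4 h and 101 and 126 CPM at 24 h (-0.13 ± 0.20, adjusted p = 0.682). Without single libraries 1, 4, 7 and 3 protease genes were higher and 3, 3, 4 and 3 lower, and 3 were lower with no filter on low counts.

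Of 28 angiogenesis genes 8 rose and 5 fell (28.6% and 17.9%, against 11.7% and 11.6% of all genes). Aplnr, the apelin receptor, was at 22.6 and 27.8 CPM at 4 h and 95.5 and 74.3 CPM at 24 h (1.75), Angpt1, the Tie2 ligand, at 31.1 and 26 CPM at 4 h and 60.9 and 56.7 CPM at 24 h (1.04), and Pgf, placental growth factor, at 37.4 and 22.4 CPM at 4 h and 5.79 and 6.4 CPM at 24 h (-2.28). The 8 became 3, 6, 4 and 5 without single libraries. Of 25 TGF-beta family genes 5 rose and 6 fell (20% and 24%). Acvr1, an activin receptor, was at 22.5 and 23.8 CPM at 4 h and 39.5 and 40.4 CPM at 24 h (0.79). Bmp4, a bone morphogenetic protein, was at 17.6 and 18.5 CPM at 4 h and 11.2 and 11.5 CPM at 24 h (-0.67, in 2 of the 4 fits). Without single libraries 2, 4, 4 and 1 were higher and 2, 9, 2 and 1 lower.

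Most cell division genes tested rose. Of 33 DNA replication genes 22 were higher (66.7%, against 11.7% of all genes) and 11 were not called, and the median change was 0.95. Mcm5, a subunit of the replicative helicase, was at 5.23 and 5.98 CPM at 4 h and 14.6 and 19.7 CPM at 24 h (1.60 ± 0.17, adjusted p = 0.00205). E2f1, the factor that drives such genes, was at 1.43 and 1.41 CPM at 4 h and 5.24 and 5.71 CPM at 24 h (1.95), Pola1, a subunit of the priming polymerase, at 5 and 4.35 CPM at 4 h and 10.6 and 10.9 CPM at 24 h (1.21), and Cdc6, the helicase loader, at 0.317 and 0.452 CPM at 4 h and 2.17 and 3.42 CPM at 24 h (2.81). All 4 passed whichever BT2 library was left out. The list's count was 10, 11, 19 and 8 without single libraries and 13 with the BT2 libraries fitted alone. Mitosis genes were higher in 17 of 32 (53.1%), with a median of 1.27. Kif11, a spindle motor, was at 1.98 and 1.81 CPM at 4 h and 7.14 and 10 CPM at 24 h (2.19), Ccnb1, cyclin B1, at 2.46 and 1.58 CPM at 4 h and 5.2 and 8.03 CPM at 24 h (1.74) and Ccna2, cyclin A, at 3.65 and 2.65 CPM at 4 h and 9.27 and 14 CPM at 24 h (1.90, in 2 of the 4 fits). Levels of single mitosis genes were low, and the count was 4, 4, 19 and 3 without single libraries and 10 with a replicate block.

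Promoters of 2 such genes are shown because they hold the motifs known from cell cycle genes, CCAAT of factor NF-Y, the E2F forms TTTGGCGC and TTTCGCGC, and TTTGAA of the late cell cycle element, in capitals (Mcm5 at chr19:13488563-13488812, plus strand, Ccnf, which encodes cyclin F, at chr10:13783670-13783919, minus strand, RefSeq build GRCr8, 250 bases before the start).
Mcm5: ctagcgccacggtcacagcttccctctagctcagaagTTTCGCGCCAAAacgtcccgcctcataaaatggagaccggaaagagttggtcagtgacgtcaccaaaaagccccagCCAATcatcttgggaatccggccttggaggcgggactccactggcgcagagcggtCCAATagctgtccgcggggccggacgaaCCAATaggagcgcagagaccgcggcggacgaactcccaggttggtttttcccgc
Ccnf: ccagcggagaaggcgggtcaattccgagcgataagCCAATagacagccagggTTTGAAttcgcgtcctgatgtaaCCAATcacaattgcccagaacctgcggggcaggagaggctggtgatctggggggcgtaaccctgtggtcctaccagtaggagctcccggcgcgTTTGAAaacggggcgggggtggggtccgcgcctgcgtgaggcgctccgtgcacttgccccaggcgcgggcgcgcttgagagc
In Mcm5 the TTTCGCGC match on the gene's strand, 213 to 206 bases before the start, overlaps the TTTGGCGC match on the other strand, 209 to 202 bases before it. In the replication list CCAAT was in 16 of 24 promoters (66.7%, against 37.7% of all), TTTGGCGC in 7 of 24 promoters (29.2%, against 0.521% of all), TTTCGCGC in 7 of 24 promoters (29.2%, against 0.342% of all) and TTTGAA in 1 of 24 promoters (4.17%, against 18.1% of all). In the mitosis list CCAAT was in 20 of 26 promoters (76.9%, against 37.7% of all), TTTGAA in 18 of 26 promoters (69.2%, against 18.1% of all), TTTCGCGC in 1 of 26 promoters (3.85%, against 0.342% of all) and TTTGGCGC in 0 of 26 promoters (0%, against 0.521% of all). Ccnf was at 1.03 and 1.41 CPM at 4 h and 3.3 and 6.2 CPM at 24 h (1.94, in 3 of the 4 fits). Of 24 G1 cyclins and growth genes 9 fell (37.5%, against 11.6% of all genes) and 3 rose. Odc1, the polyamine enzyme, was at 208 and 196 CPM at 4 h and 83.1 and 73.6 CPM at 24 h (-1.36). The 9 became 7 in each fit without 1 BT2 library. The 3 rises (12.5%, near the share of all genes) were lost but for 1 that passed without replicate 1 of 24 h.

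Part of the heart muscle genes fell. Of 26 cardiomyocyte structural genes 12 fell (46.2%) and 14 were not called, and the median was -0.49. Myh6, the alpha myosin heavy chain, was at 30830 and 30640 CPM at 4 h and 10610 and 8585 CPM at 24 h (-1.68 ± 0.17, adjusted p = 0.00184), passing whichever BT2 library was left out. Actc1, cardiac actin, was at 13470 and 13930 CPM at 4 h and 7107 and 3365 CPM at 24 h (-1.39, in 2 of the 4 fits), and Tcap, telethonin, at 483 and 616 CPM at 4 h and 344 and 378 CPM at 24 h (-0.61, in 1). The 12 became 2, 1, 10 and 2 without single libraries, 5 with a replicate block, 7 with upper quartile scaling and 20 with DESeq2. Summed over the 10 cardiomyocyte markers, the level was 92600 and 91300 CPM at 4 h and 60300 and 50400 CPM at 24 h, without overlap between the times. Of these markers 4 were called lower, 1, 1, 4 and 1 without single libraries, 1 with upper quartile scaling or a replicate block, 2 with the BT2 libraries fitted alone and 7 with DESeq2.

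Calcium handling genes fell in 7 of 22 and rose in 1 (31.8% and 4.55%). Jph2, which ties the tubule membrane to the calcium store, was at 671 and 773 CPM at 4 h and 410.4 and 299 CPM at 24 h (-1.03), and Atp2b4, a plasma membrane calcium pump, rose from 38.5 and 32.1 to 68.6 and 59.7 (0.87, but 0.0558 and 0.052 as adjusted p without replicate 2 of 4 h and replicate 1 of 24 h). Of 20 cardiac stress genes 4 fell (20%, against 11.6% of all genes). Klhl40, a thin filament stabiliser, was at 61.8 and 58.4 CPM at 4 h and 10.1 and 7.79 CPM at 24 h (-2.75 ± 0.14, adjusted p = 0.000193), and Xirp1, an intercalated disc repair protein, at 2067 and 2018 CPM at 4 h and 366 and 349.7 CPM at 24 h (-2.51). The natriuretic peptide genes did not pass in edgeR, with Nppa at 215 and 172 CPM at 4 h and 499.8 and 239.5 CPM at 24 h (0.93 ± 0.31, adjusted p = 0.0634) and Nppb at 546 and 346 CPM at 4 h and 291 and 153 CPM at 24 h (-1.01 ± 0.32, adjusted p = 0.0607). Both passed with DESeq2 (0.00588 and 0.00234), Nppa also with upper quartile scaling (0.0459) and without replicate 2 of 24 h (0.0123), and Nppb without replicate 1 of 24 h (0.0254). Among ion channels and gap junction genes 3 of 23 rose and 3 fell, 13% each way and near the shares of all genes. Gja1, connexin 43, was at 231 and 305 CPM at 4 h and 738 and 694 CPM at 24 h (1.42 ± 0.20, adjusted p = 0.00471), and Kcna4, a channel of the transient outward current, at 1.74 and 1.24 CPM at 4 h and 7.01 and 7.79 CPM at 24 h (2.33). The calcium list's 7 became 1, 3, 8 and 1 without single libraries, and the stress list's 4 became 4, 5, 8 and 2. With the BT2 libraries fitted alone 4 calcium genes were lower, and with DESeq2 9 stress genes and 6 channel genes were. The 3 lower channel genes were lost without replicate 1 of 4 h and without replicate 2 of 24 h, and 1 passed without replicate 2 of 4 h.

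Transcripts of mitochondrial metabolism and fatty acid uptake were lower in part, in each of 4 lists. Of 37 respiratory chain genes 18 were lower (48.6%), and of 24 tricarboxylic acid cycle and pyruvate genes 14 (58.3%). Of 24 branched-chain amino acid genes 8 were lower (33.3%), and of 28 genes of fatty acid uptake and oxidation 6 (21.4%). The medians of the 4 lists, in this order, were -0.42, -0.49, -0.38 and -0.23. The tricarboxylic acid cycle count below includes the pyruvate genes. Cycs, cytochrome c, was at 258 and 216 CPM at 4 h and 148 and 127 CPM at 24 h (-0.79 ± 0.12, adjusted p = 0.00562). Hadh, an enzyme of fatty acid oxidation, was at 356 and 373 CPM at 4 h and 234 and 236 CPM at 24 h (-0.63), Mccc2, of leucine breakdown, at 232 and 237 CPM at 4 h and 165 and 151 CPM at 24 h (-0.57), and Fabp3, the heart's fatty acid carrier, at 3469 and 2973 CPM at 4 h and 1998 and 1731 CPM at 24 h (-0.79, in 3 of the 4 fits). The calls of these small changes depended on the libraries. The respiratory chain count was 1, 3, 11 and 1 without single libraries, 9 with a replicate block or the BT2 libraries fitted alone, 8 with upper quartile scaling and 29 with DESeq2. The tricarboxylic acid cycle count was 1, 3, 12 and 1, the branched-chain amino acid count 3, 2, 9 and 2, and the fatty acid count 1, 2, 6 and 2. With upper quartile scaling or a replicate block the tricarboxylic acid cycle count was 9 and the branched-chain amino acid count 5, with the BT2 libraries alone 8 and 5, and with DESeq2 the fatty acid count was 11.

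Among 35 hypoxia and glycolysis genes 11 fell and 1 rose (31.4% and 2.86%). Hk2, hexokinase 2, was at 239.6 and 249.9 CPM at 4 h and 121 and 90.9 CPM at 24 h (-1.21), Pgam2, the muscle phosphoglycerate mutase, at 714 and 620.3 CPM at 4 h and 368 and 288 CPM at 24 h (-1.02), and Pdk4, which restrains pyruvate oxidation, at 405 and 1072 CPM at 4 h and 76.6 and 135 CPM at 24 h (-2.80). P4ha1, a collagen prolyl hydroxylase, was the member that rose (41.6 and 49.8 to 75.7 and 87.1 CPM, 0.83). All 4 kept the call whichever BT2 library was left out. The list's 11 became 7, 5, 8 and 4 without single libraries. Of 20 PPAR, PGC-1 and ERR regulators 3 fell and 2 rose (15% and 10%, near the shares of all genes), and Ppard, the fatty acid sensing receptor, was at 192 and 228 CPM at 4 h and 94.8 and 95.2 CPM at 24 h (-1.14), called in each fit without 1 BT2 library, with 1, 3, 1 and 2 lower members over the list and 1 with upper quartile scaling. The 2 rises were lost without replicate 1 of 4 h and without replicate 2 of 24 h, and 1 passed in each of the other fits.

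The endoplasmic reticulum and amino acid stress list was divided, with 11 of 32 higher and 6 lower (34.4% and 18.8%). The higher members named by the rule encode folding factors of the endoplasmic reticulum, such as Pdia4 (30.6 and 32.5 CPM at 4 h and 75.2 and 97 CPM at 24 h, 1.45 ± 0.14, adjusted p = 0.00172), Hyou1 (89.8 and 73.9 CPM at 4 h and 172 and 164 CPM at 24 h, 1.04), Creld2 (9.67 and 8.58 CPM at 4 h and 20.3 and 26.8 CPM at 24 h, 1.37) and Pdia6 (119 and 113 CPM at 4 h and 184 and 206 CPM at 24 h, 0.75). The lower ones named were Atf4, the factor of the integrated stress response, at 329 and 272 CPM at 4 h and 129.9 and 149.7 CPM at 24 h (-1.10), and Mthfd2, a mitochondrial folate enzyme, at 26.9 and 21.5 CPM at 4 h and 7.23 and 10 CPM at 24 h (-1.48). These 6 genes passed whichever BT2 library was left out. The higher count was 7, 7, 9 and 5 and the lower count 2, 5, 4 and 4 without single libraries. NRF2 targets gave 4 rises and 4 falls in 22 (18.2% each way, against 11.7% and 11.6% of all genes). Srxn1, sulfiredoxin, was at 72.4 and 45.8 CPM at 4 h and 15.6 and 19.2 CPM at 24 h (-1.76). Gclc, of glutathione synthesis, was at 58 and 52.8 CPM at 4 h and 26.4 and 31.8 CPM at 24 h (-0.93). Of 21 metallothionein, acute phase and iron genes 3 rose and 4 fell (14.3%, near the share of all genes, and 19%). The falls were led by Tfrc, the transferrin receptor (188 and 138 CPM at 4 h and 50.3 and 34.4 CPM at 24 h, -1.95). Srxn1, Gclc and Tfrc kept the call in each fit without 1 BT2 library. The lower counts of these lists were 2, 3, 2 and 3 and 1, 2, 2 and 2 without single libraries, and the higher calls of both were all lost without replicate 2 of 24 h.
Of 19 circadian clock genes 6 fell (31.6%) and 2 rose (10.5%, near the share of all genes). Bhlhe40, a repressor of the clock, was at 129 and 125 CPM at 4 h and 74.5 and 64.8 CPM at 24 h (-0.87), and Cry1, another, at 20.6 and 21.4 CPM at 4 h and 10.5 and 11.5 CPM at 24 h (-0.93). The sources used here do not give the clock hour of sampling. The count of lower clock genes was 4, 5, 5 and 2 without single libraries, and of the 2 rises 1 passed without replicate 2 of 24 h and both were lost in each other fit. Of 19 FoxO and atrophy genes 4 fell and 1 rose, with 4, 2, 2 and 1 lower without single libraries, and of 19 cholesterol synthesis genes 2 rose and 2 fell, shares of 10.5% each way that are near those of all genes. Of the FoxO and atrophy genes 21.1% fell and 5.26% rose, against 11.6% and 11.7% of all genes. Vcam1, the leukocyte adhesion molecule, did not pass, at 20.1 and 17.9 CPM at 4 h and 23.8 and 20.6 CPM at 24 h (0.23 ± 0.13, adjusted p = 0.246).

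**Figure D4:**
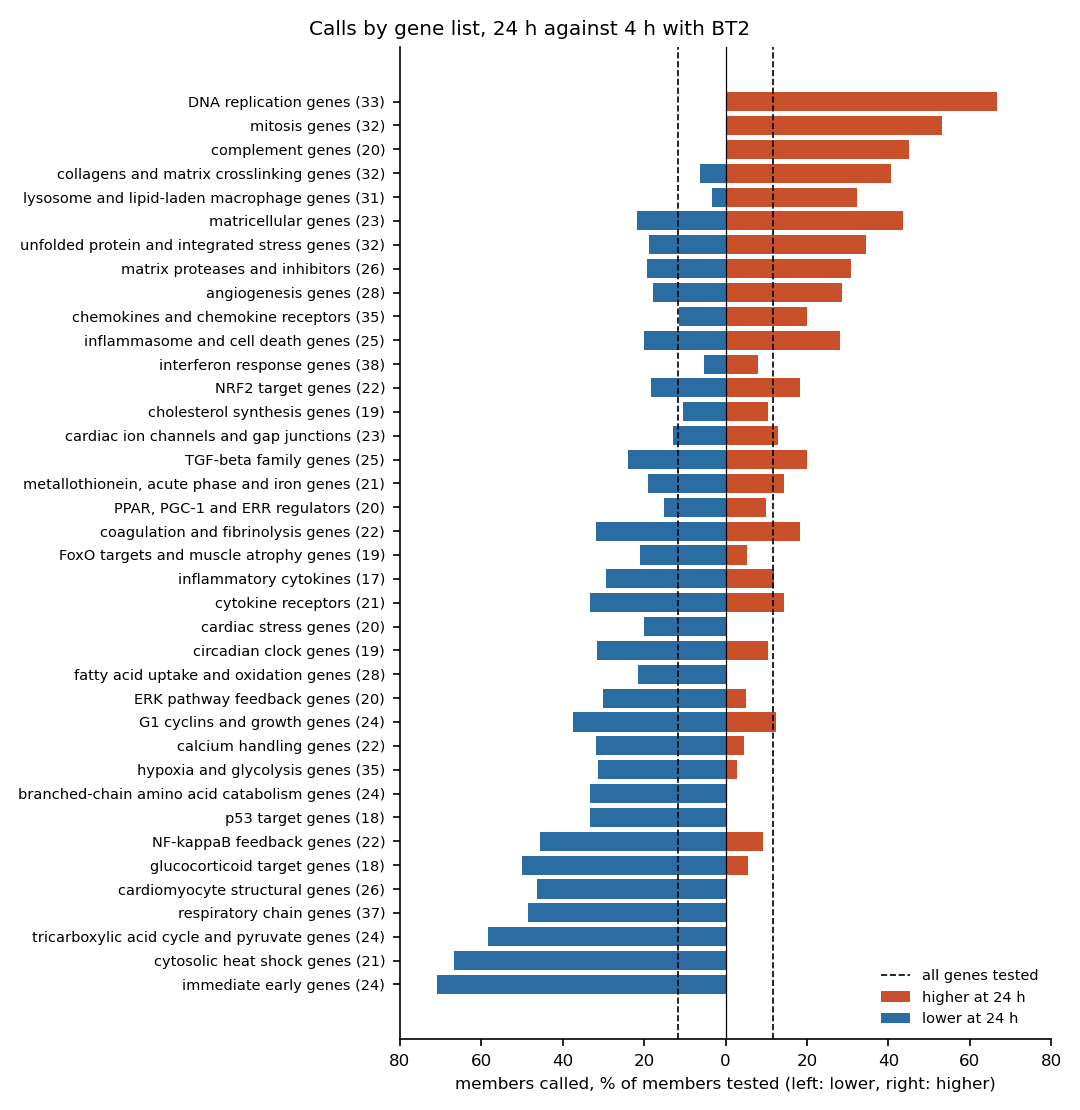
Share of the members tested that were called higher (right, orange) or lower (left, blue) at 24 h with BT2, for each of the 38 pathway lists (members tested in brackets); dashed lines mark the shares of all genes tested, 11.7% and 11.6%. DNA replication genes reach furthest to the right and immediate early genes furthest to the left.

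The vehicle course, from libraries that the BT2 course does not share, had more calls in the same fit, with 3545 genes higher (23.3%) and 3617 lower (23.8%). The median absolute log2 change over all genes tested was 0.349 with BT2 and 0.532 with vehicle. Both courses called 2685 genes in the same direction. A test of the difference between the courses called 718 genes as higher in the BT2 course (4.72%) and 369 as lower (2.43%). Of these 1087 genes, 682 had the same sign in both courses and a smaller fold change with BT2 (62.7%), 29 the same sign and a larger one with BT2, and 376 opposite signs. The count of differences depended on single libraries. It was 223 higher and 73 lower without BT2 4 h replicate 1, 86 and 16 without BT2 4 h replicate 2, 19 and 3 without BT2 24 h replicate 1, 296 and 67 without vehicle 4 h replicate 2, and 41 and 7 without vehicle 24 h replicate 1. Without vehicle 24 h replicate 2 edgeR called 0 genes, with 2854 at an unadjusted p under 0.05, and no other tool was run on that set.

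Muscle and metabolic genes were among those with smaller falls under BT2. The difference was called, in the higher direction, in 29 of 37 respiratory chain genes and 22 of 28 fatty acid genes, against 4.72% of all genes. It was so called too in 12 of 24 tricarboxylic acid cycle and pyruvate genes and 13 of 24 branched-chain amino acid genes. Of the cardiomyocyte structural genes 12 of 26 had this call. The list counts of this paragraph were not taken without single libraries. Without BT2 24 h replicate 1 or vehicle 24 h replicate 2, fewer genes were called higher in all than the 29 named here. The respiratory chain count thus did not hold in those fits. Respiratory chain genes had medians of -0.42 with BT2 and -1.20 with vehicle, and fatty acid genes -0.23 and -1.34. The summed cardiomyocyte markers with vehicle were 82600 and 98400 CPM at 4 h and 26800 and 26600 CPM at 24 h, so the vehicle tissue at 24 h lay below the BT2 tissue at 24 h. How far the share of muscle RNA bears on the single genes was not tested. In the lower direction, against 2.43% of all genes, 19 of 33 DNA replication genes and 2 of 32 mitosis genes were called, with medians for replication of 0.95 with BT2 and 2.18 with vehicle. Complement genes were called in the higher direction in 6 of 20, and resident macrophage markers in the lower direction in 4 of 16.

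The genes with the smallest p for a higher course under BT2 fell with vehicle. Gsn, gelsolin, an actin-severing protein, was at 2565 and 2422 CPM at 4 h and 2336 and 2156 CPM at 24 h with BT2 and at 2817 and 2702 CPM at 4 h and 711 and 647 CPM at 24 h with vehicle. The difference of the courses was 1.87 ± 0.17 (edgeR adjusted p = 0.0122). Enpp2, autotaxin, which makes lysophosphatidic acid, was at 29.5 and 26.4 CPM at 4 h and 38.5 and 30.1 CPM at 24 h with BT2 and 21.2 and 21.3 CPM at 4 h and 4.3 and 4.1 CPM at 24 h with vehicle (2.63 ± 0.21, adjusted p = 0.0122). The adjusted p of the BT2 course itself was 0.375 for Gsn and 0.154 for Enpp2. Hfe2, hemojuvelin, of iron sensing (-0.18 with BT2 and -1.87 with vehicle), and Ces1d, a carboxylesterase with near-identical relatives (0.40 and -2.30), did not pass with BT2 either, with differences of 1.69 and 2.70.

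In 52 genes both courses passed with opposite signs, and the difference was called in all 52. Opposite calls in both courses nearly require this, so it adds no support. Gbp1, an interferon-induced GTPase, was at 111 and 132 CPM at 4 h and 196 and 158 CPM at 24 h with BT2 and 194 and 190.4 CPM at 4 h and 66.7 and 72.2 CPM at 24 h with vehicle (2.01 ± 0.19, adjusted p = 0.0122). Sod3, extracellular superoxide dismutase, was at 54.9 and 63.5 CPM at 4 h and 75 and 79.5 CPM at 24 h with BT2 and 43.3 and 43.5 CPM at 4 h and 20.3 and 20.3 CPM at 24 h with vehicle (1.48 ± 0.15, adjusted p = 0.0122). Pltp, the phospholipid transfer protein (0.65 with BT2 and -0.49 with vehicle), and Cd274, the checkpoint ligand PD-L1 (0.45 and -0.89), likewise rose with BT2 and fell with vehicle. B4galt6, a glycolipid galactosyltransferase, did the reverse (-0.77 and 0.65). Pltp and B4galt6 kept the call of the BT2 course whichever BT2 library was left out. Cd274 lost it in each of these fits, with log2 fold changes of 0.382 to 0.526, and Gbp1 and Sod3 in some. With the BT2 libraries fitted alone, Gbp1 (edgeR adjusted p = 0.0505) and Sod3 (0.0617) did not pass. Sod3 also did not pass with DESeq2 (0.0553).

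Of the genes with a lower course under BT2, Folr2 rose in both and was at 8.09 and 9.71 CPM at 4 h and 25.1 and 26.7 CPM at 24 h with BT2 and 5.44 and 4.49 CPM at 4 h and 42.9 and 49.8 CPM at 24 h with vehicle (-1.70 ± 0.22, adjusted p = 0.0144). Gnpda1, a glucosamine phosphate deaminase (1.05 and 2.73), and Npl, of sialic acid breakdown (0.91 and 2.83), also rose in both courses. Mcm10, a replication initiation factor, was at 5.87 and 8.18 CPM at 4 h and 4.25 and 4.65 CPM at 24 h with BT2 and 3.26 and 3.37 CPM at 4 h and 9.2 and 8.7 CPM at 24 h with vehicle (-2.10 ± 0.31, adjusted p = 0.0181), both 24 h libraries with BT2 lying below both at 4 h without a call (adjusted p = 0.052). Without vehicle 24 h replicate 2 none of the genes named for the difference passed, and in the other 7 fits that left out 1 library Gsn, Enpp2, Hfe2, Ces1d, Gbp1, Sod3 and B4galt6 all passed.

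**Figure D5:**
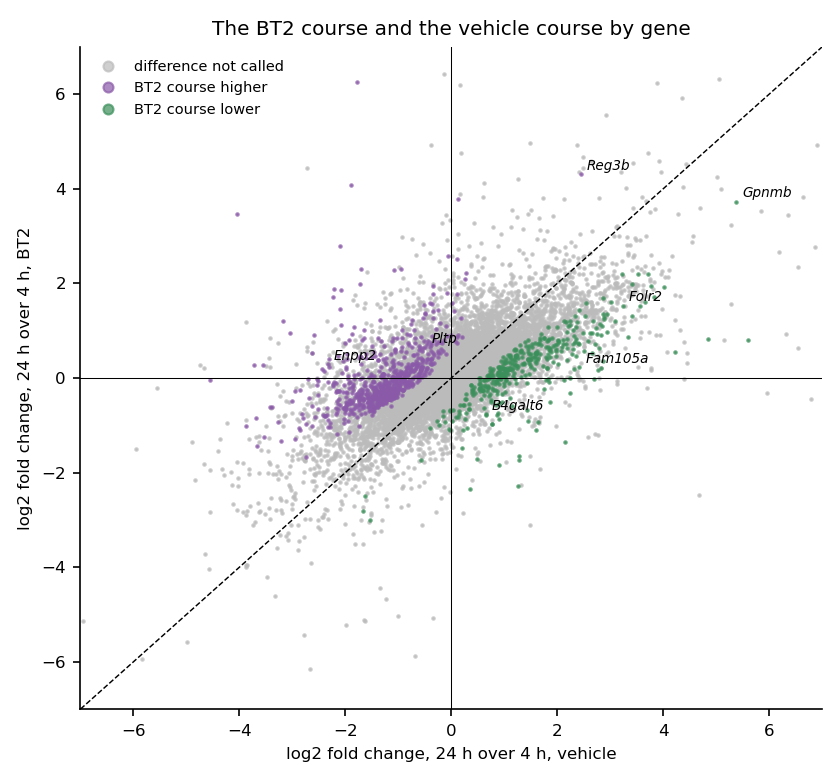
Log2 fold change of 24 h over 4 h with BT2 (vertical axis) against that with vehicle (horizontal axis), 1 point per gene, coloured by the edgeR test of the difference; the dashed line marks equal changes, and 11 genes lie beyond the limits of 7. Most coloured points lie between the horizontal axis and the dashed line, where the change with BT2 is the smaller one.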

How the data were processed

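The authors deposited whole-number gene counts for the tissue libraries. Per the labels' protocols, RNA was taken with RNeasy kits and made into TruSeq stranded mRNA libraries. The submitters' processing notes name Trim Galore, STAR, featureCounts and the build Rnor_6.0, with versions and the strand setting of counting not given in the sources used here. Genes that overlap on opposite strands, and near-identical copies, are therefore uncertain.

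Of 31580 genes, 15216 passed filterByExpr (minimum count 10). edgeR 4.0.16 in R 4.3.3 fitted 1 mean per group over the 8 tissue libraries by robust quasi-likelihood with TMM factors, which leaves 4 residual degrees of freedom, and tested 24 h against 4 h with BT2, the same with vehicle, and the difference. Adjusted p under 0.05 was called. The genes and lists were chosen with earlier results of these data known. Named genes are the 12 largest rises and 12 largest falls among called genes of at least 5 CPM, up to 4 and 2 called members with the smallest p in the 2 directions of each list, the 6 smallest p of the difference each way, the 5 smallest among opposite calls, and 11 chosen genes. Lists are described by counts and medians over members tested. The alternatives were RLE and upper quartile factors, DESeq2 1.42.0, no filter, a replicate block, the BT2 libraries alone, a test beyond 1.5-fold and each library left out. Equal replicate numbers did not pair the samples. Tested on simulated data, the fit recovered 80.2% of 86 planted 2-fold changes and 93% of 114 planted 4-fold changes. Of its 198 calls 23 were false, a share above the adjusted p threshold of 0.05. The calls and counts given here may thus also hold more false ones than the threshold states. Calls near the threshold are the less certain. Nuclear samples were not analysed here, and a few genes that the rule names are not reported here.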

Additional observations from a re-analysis of the deposited data

Results flagged for a closer look

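The edgeR test of the difference between the BT2 and vehicle courses called 18 genes that are listed here. Values are the BT2 course minus the vehicle course on the log2 scale. The 18 are not all named genes with this call. Genes named for a list alone had it too, in both directions, and are not counted here. Examples are Gja1 (1.37, adjusted p = 0.0332) and Mthfd2 (-1.68, adjusted p = 0.0189). Among the 18, differences above 0 were 2.63 in Enpp2 (autotaxin), 1.69 in Hfe2 (hemojuvelin) and 1.87 in Gsn (gelsolin). Gbp1 had 2.01, Sod3 1.48 and Ces1d 2.70. They were also 1.35 in Cd274, 1.14 in Pltp, 1.88 in Reg3b and 2.43 in G0s2. Of these, Reg3b and G0s2 rose in the BT2 course by 4.32 and 2.53, with vehicle values of 2.44 and 0.10. Among the 18, differences below 0 were -1.42 in B4galt6, -1.68 in Gnpda1, -1.70 in Folr2 and -1.92 in Npl. They were also -2.19 in Fam105a, -2.10 in Mcm10, -1.64 in Gpnmb and -1.82 in Nppa, the atrial natriuretic peptide. Nppa was at 215 and 172 CPM at 4 h and 499.8 and 239.5 CPM at 24 h with BT2 and at 266 and 307 CPM at 4 h and 1911 and 1940 CPM at 24 h with vehicle. Fam105a was at 12 and 9.26 CPM at 4 h and 12.8 and 11.9 CPM at 24 h with BT2 and at 6.2 and 9.95 CPM at 4 h and 45.4 and 42.3 CPM at 24 h with vehicle. All 18 lost the call without vehicle 24 h replicate 2. Of 8 fits that left out 1 library each, Gpnmb passed in 1, Nppa and G0s2 in 2 each, and Enpp2, Hfe2, Gsn, Gbp1, Sod3, Ces1d and B4galt6 in 7 each.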

How the results depend on the processing

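With RLE or upper quartile factors, DESeq2, the BT2 libraries alone, no filter or a replicate block, the counts for the BT2 course stayed within 1.5 times the main counts, and under no alternative run did a called gene change sign. A test for changes beyond 1.5-fold left 269 genes higher and 209 lower. Without 1 BT2 library the counts ranged from 536 to 954 higher and from 485 to 1124 lower. For the difference between the courses, no filter gave 1089 and 730, the replicate block 507 and 222, and leaving out 1 library 0 to 894 and 0 to 549, with edgeR calling none without vehicle 24 h replicate 2 (2854 at an unadjusted p under 0.05). The median of the TGF-beta list, -0.36, ranged from -0.416 to 0.0371 without 1 library and turned positive without BT2 4 h replicate 1, so no direction is given for it. Under the replicate block 7 named genes lost the call of the BT2 course, and 8 did with upper quartile factors. The losses were 28 with no filter, 23 with the BT2 libraries alone and 147 in the test beyond 1.5-fold. With no filter the lost genes included Il6 (edgeR adjusted p = 0.0698), Fosb (0.0926), Fosl1 (0.0877) and Egr1 (0.0837). Ptx3 (0.116), Mmp12 (0.0677) and Pdk4 (0.0532) were lost there too. Deviations of samples with equal replicate numbers correlated at -0.0464 to 0.0965, so the numbers were not treated as pairs. Of 242 called named genes, 113 kept the call in all 4 fits without 1 BT2 library and 27 in none. With 2 libraries a time and 4 residual degrees of freedom, genes of a few CPM and modest changes are the least certain, as is every count for the difference.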
